A study of Mus musculus with 10 samples.

Results

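REST, the RE1-silencing transcription factor, was mapped on chromatin in mouse cortex, and the question taken up here was whether it lay on its own gene and on the genes of the corepressors it works with. The genes were taken by name and number 10 of the 26180 annotated genes: Rest, the CoREST scaffolds Rcor1, Rcor2 and Rcor3, the SIN3 scaffolds Sin3a and Sin3b, the histone deacetylases Hdac1 and Hdac2, the histone demethylase Kdm1a (also called LSD1) and the histone methyltransferase Ehmt2 (also called G9a). REST binds a DNA element called RE1 through its zinc fingers and silences neuronal genes outside the nervous system and in neural progenitors. It has a repressor domain at either end of the protein, one that recruits SIN3 with its deacetylases and one that recruits CoREST, which brings deacetylases and the demethylase Kdm1a, while Ehmt2 adds repressive methyl marks to histones. In mature neurons REST is low but present, and it is studied in the aging brain as a repressor of genes of cell death and of Alzheimer's disease pathology.

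Chromatin immunoprecipitation and sequencing with an antibody to the C terminus of REST was carried out on cortex of female mice at 11 months of age. WT mice were compared with 3xTg mice, a model of Alzheimer's disease whose alleles include transgenes for mutant human APP and mutant human tau, and the study's methods place its 3xTg lines on a hybrid of C57BL/6J and 129Sv/Ev. Each genotype had 4 replicates, each a pool of 4 frozen cortices (16 cortices per genotype), and 1 library of input chromatin taken before the precipitation. The authors deposited 1 peak list per genotype that combines the 4 replicates, with 3006 WT peaks and 5077 3xTg peaks off chromosome Y. Each peak carries its fold enrichment, the ratio of signal at the summit to the background around it, and peaks were ranked by this value, with rank 1 the highest. Since the replicates are merged, no value below has a replicate spread, none was tested here between genotypes, and the depth of the libraries is not in the lists. The study itself ran a differential binding analysis between the genotypes. It reported peaks with higher REST occupancy in 3xTg and none with lower, and its results were not used here. In pooled whole cortex, fewer cells with REST at a site and less REST per cell cannot be told apart, and the lists hold no expression values against which to check the tissue. The lists were not cut at the same height: the lowest fold enrichment was 6.003 in the WT list and 8.50 in the 3xTg list, and the median was 7.28 and 10.8.

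REST peaks were found at Sin3a in both lists and at Rest itself in the 3xTg list, and at none of the other 8 genes in either list. A gene was counted when a peak overlapped its body or lay within 5 kb of a start site. By this rule 1 of the 10 genes had a WT peak, against 9.27% of all annotated genes, and 2 of the 10 had a 3xTg peak, against 14.2%. Sin3a was the 1 gene with a peak in both lists, against 7.75% of all genes, and Rest was the 1 gene with a 3xTg peak and no WT peak, against 6.4%. A peak lay over a start site at 1 of the 10 genes in the WT list, against 4.16% of all genes, and at 1 of the 10 in the 3xTg list, against 6.9%; both times the gene was Sin3a. With 10 genes, these counts lie close to the shares of all genes and do not set the group apart. Among the 11278 protein-coding genes whose bodies were no shorter than that of Rcor2 (7832 bases) and no longer than that of Rcor1 (76536 bases), 9.70% had a WT peak and 14.5% a 3xTg peak, against 10.3% and 15.7% of all 21000 protein-coding genes.

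Rest spans chr5:77265494-77283697 on the plus strand of mm10, with 1 annotated start site at its first base. The 3xTg list held a peak just inside the gene, chr5:77265537-77266247, which began 43 bases after the start site. Its summit at 77265804 lay 310 bases after the start site, in the first intron and 16 bases beyond the end of the noncoding exon 1. The peak took in 252 bases of exon 1, and no other annotated gene lay within 5 kb of it. A predicted RefSeq transcript of Rest, not used for the counts, starts inside the peak at 77266023. Whether the 3xTg peak lies over a start site of Rest thus depends on the annotation. The start-site counts were not rerun with predicted transcripts. The fold enrichment of this peak was 8.98, which ranked 4337 of 5077, and 606 peaks of the 3xTg list were lower. Tied peaks were given the smallest rank of their tie, and the Rest peak shared its value and rank with other peaks. Its −log10 q was 31.2 and its width 711 bases, below the list's median width of 937 bases. So the peak on Rest was a weak and narrow one within the 3xTg list.

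No WT peak overlapped the one on Rest. The nearest WT peak to the Rest start site was 43914 bases away, chr5:77309408-77310760, at the genes Noa1 and Polr2b, with a fold enrichment of 9.70 (rank 638). Absence from the WT list was common at this height. Of the 1281 3xTg peaks whose fold enrichment was within 0.5 of that of the Rest peak, 243 (19.0%) overlapped a WT peak. Over the whole 3xTg list 2489 of 5077 peaks (49.0%) did, and 2504 of 3006 WT peaks (83.3%) overlapped a 3xTg peak.

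**Figure D1:**
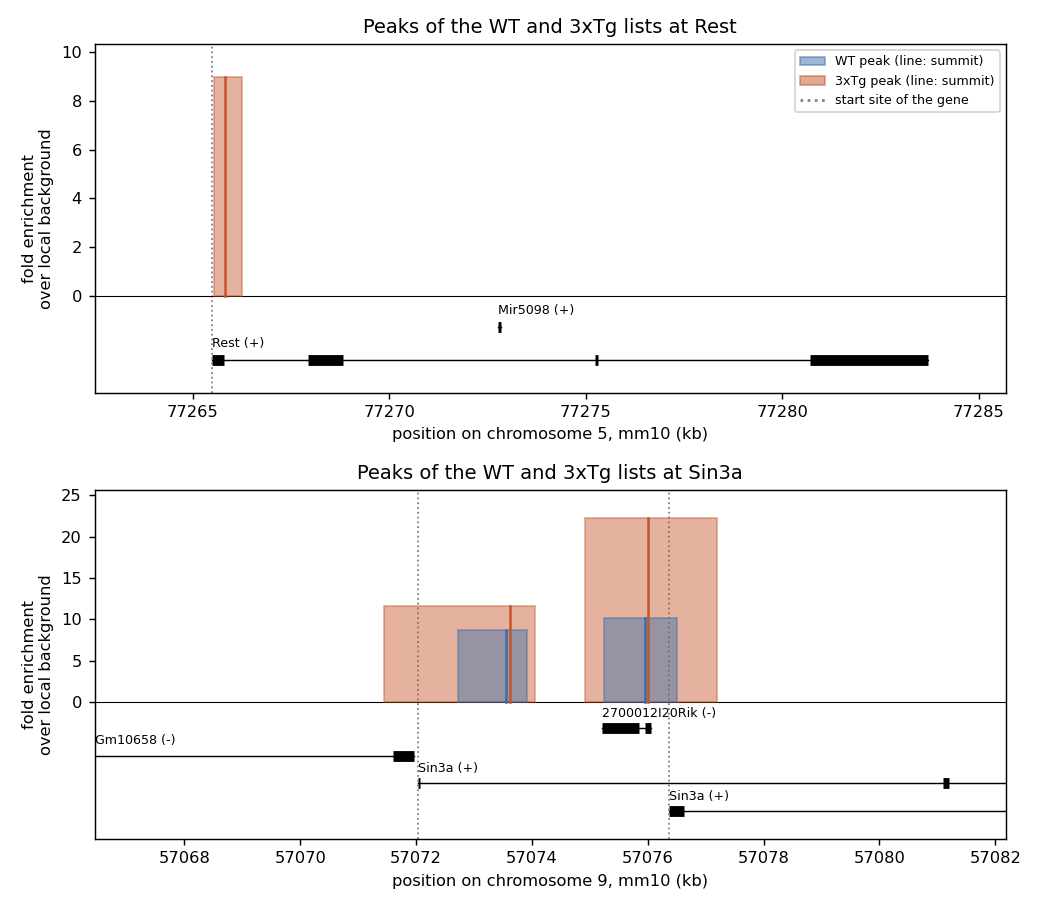
Peaks at Rest (top) and at the 5′ end of Sin3a (bottom), with the position on the chromosome in kb (mm10) on the x axis and the fold enrichment over the local background on the y axis; bars span each WT or 3xTg peak, vertical lines mark summits, dotted lines mark start sites, and black boxes below are exons of curated transcripts, with the strand after each gene name. Rest has 1 peak, from the 3xTg list at 8.98, and each of the 2 Sin3a peaks of the WT list lies inside a wider and higher 3xTg peak.

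The CoREST scaffolds Rcor1, Rcor2 and Rcor3 had no peak in either list. These proteins bridge REST to Kdm1a and the deacetylases. The nearest peaks to the Rcor1 start site on chromosome 12 were 129009 bases away in the WT list and 128705 bases away in the 3xTg list. At Rcor3 on chromosome 1 they were 283146 and 283126 bases away. Both times the nearest place was the same in the 2 lists, near Tecpr2 for Rcor1 and near Kcnh1 for Rcor3. At Rcor2 on chromosome 19 the nearest WT peak was 226494 bases away and the nearest 3xTg peak 72834 bases away, near Mark2.

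Sin3a, which encodes the scaffold on which the SIN3 deacetylase complex is built, carried 2 peaks in each list, all 4 of them at the 5′ end of a gene that spans chr9:57072040-57128368 on the plus strand. Its curated transcripts start at 57072040 and at 57076376, and the peaks form a pair, one near each start site. The stronger WT peak, chr9:57075239-57076497, covered the second start site and had a fold enrichment of 10.2, which ranked 550 of 3006. Its 3xTg counterpart, chr9:57074917-57077188, had a fold enrichment of 22.3 and ranked 363 of 5077, within the upper 7.15% of its list. The summits, at 57075955 and 57076000, were 45 bases apart, and the WT peak lay wholly inside the 3xTg peak. They lay 421 and 376 bases before the second start site, in the first intron of the longer transcript.

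The summits of this stronger pair were closer to the start of another gene. The long noncoding RNA gene 2700012I20Rik, on the minus strand at chr9:57075203-57076049, starts between the summits and the second Sin3a start site, so that the transcripts run away from each other. Its start site lay 94 bases from the WT summit and 49 bases from the 3xTg summit. Position alone therefore does not assign this binding to Sin3a over its neighbour.

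The weaker WT peak, chr9:57072721-57073914, had a fold enrichment of 8.70 (rank 860) and lay 681 bases after the first start site of Sin3a. The 3xTg peak at the same place, chr9:57071450-57074051, had a fold enrichment of 11.6 (rank 2111). It was 2602 bases wide against 1194 bases, and it reached across that start site and into the first 517 bases of Gm10658, a long noncoding RNA gene on the minus strand at chr9:57056897-57071966. The summits, at 57073555 and 57073617, were 62 bases apart and lay 1515 and 1577 bases after the first start site, again in the first intron. Predicted RefSeq transcripts of Sin3a, not used for the counts, start inside both of these peaks at 57073784 and 57073869. These starts lay 229 and 314 bases from the WT summit and 167 and 252 bases from the 3xTg summit.

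The 2 Sin3a peaks kept their order of height in both lists but moved apart. The stronger was 1.17 times the weaker in the WT list and 1.91 times in the 3xTg list. Between the lists, the stronger peak's fold enrichment was 2.18 times as high in 3xTg as in WT and the weaker peak's 1.34 times. Over the 2504 WT peaks with a 3xTg peak the median of this ratio was 1.70, with the middle part of the list, from the lower to the upper quartile, running from 1.49 to 1.94, and it was above 1 for 99.5% of them. The stronger Sin3a peak had a ratio above that of 88.3% of these pairs and the weaker one above that of 10.02%.

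All Sin3a peaks were wide. The WT peaks, at 1259 and 1194 bases, were among the widest 6.72% and 8.38% of their list, whose median was 611.5 bases. The 3xTg peaks, at 2272 and 2602 bases, were among the widest 4.69% and 2.52%. A gene with more than 1 peak was not the usual case: 12.9% of the 2426 genes with a WT peak and 17.6% of the 3706 genes with a 3xTg peak had at least 2. Sin3b, the paralog of Sin3a on chromosome 8, had none, and its nearest peak lay 76512 bases from its start site in the WT list and 76407 bases in the 3xTg list.

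**Figure D2:**
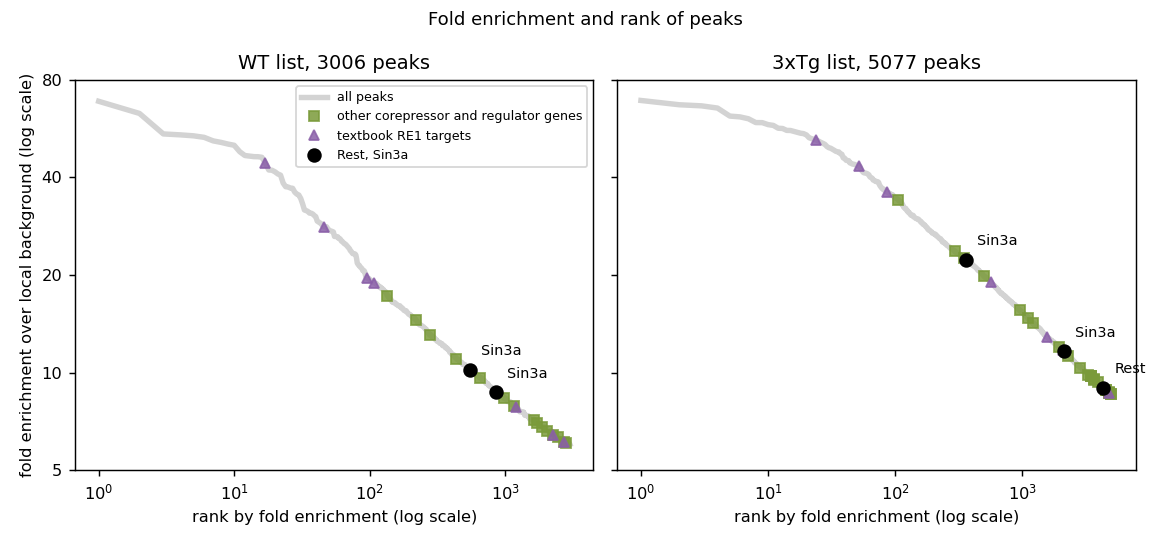
Fold enrichment over the local background (y axis, log scale) against rank by fold enrichment (x axis, log scale) for all peaks of the WT list (left) and the 3xTg list (right), with the peaks at Rest and Sin3a as black circles, those at 38 other corepressor and REST regulator genes as squares and those at 10 textbook RE1 target genes as triangles. The Rest peak ranks 4337 of 5077 in the 3xTg list, while the stronger Sin3a peak ranks 550 in WT and 363 in 3xTg.

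The deacetylase genes Hdac1 and Hdac2, whose products sit in both the SIN3 and the CoREST complexes, had no peak. Around Hdac1 on chromosome 4 the nearest WT peak was 76465 bases from the start site and the nearest 3xTg peak 97853 bases. Hdac2 stood apart from all the other genes by its distance. Its nearest peak, at Fyn on chromosome 10, was 2545652 bases away in the WT list and 2545498 bases in the 3xTg list, farther than for 96.4% and 98.3% of 26089 genes. No peak of either list lay within 500 kb of the gene body.

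The genes of the histone methylation enzymes had none either. Kdm1a removes methyl groups from histones in the CoREST complex, and its nearest peak on chromosome 4 was 304427 bases from the start site in WT and 304311 bases in 3xTg. Ehmt2, which adds them, had its nearest WT peak 82259 bases away and its nearest 3xTg peak 47740 bases away, near Nelfe and Skiv2l on chromosome 17. The 8 genes without a peak were thus well outside the 5 kb limit in both lists. Over all genes the median distance from a start site to the nearest peak was 216530 bases for the WT list and 131063 bases for the 3xTg list, and 4 and 3 of the 10 genes were farther away than that.

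**Figure D3:**
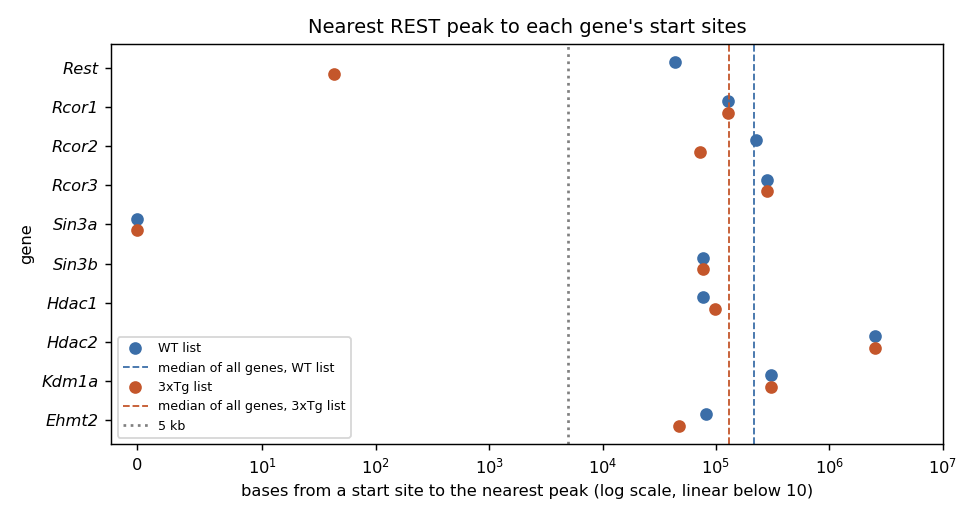
Distance in bases from the nearest start site of each of the 10 genes to the nearest peak of the WT list and of the 3xTg list (x axis, log scale, linear below 10), with dashed lines at the median over all genes and a dotted line at 5 kb. Sin3a is at 0 in both lists, Rest is at 43 bases in 3xTg and 43914 bases in WT, and the other 8 genes lie at least 47740 bases away in both lists.

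The DNA under the peaks was then read from the mm10 reference genome. An RE1 match was a stretch of 20 bases on either strand with at most 5 mismatches to the RE1 consensus. None of the 2 WT and 3 3xTg peaks at Rest and Sin3a held one. Over the whole lists 213 of 3006 WT peaks (7.09%, 95% Wilson confidence interval 6.22 to 8.06%, counting error only) and 309 of 5077 3xTg peaks (6.09%, 5.46 to 6.78%) did, against 1.57% and 2.19% of windows of the same widths placed 10 kb downstream. A peak without a match was therefore the common case in these lists. The fewest mismatches were 7 in the Rest peak, where 5 stretches tied, 8 in the stronger Sin3a peak (chr9:57075343-57075362, plus strand, with 5 more tied stretches in the wider 3xTg peak) and 6 in the weaker Sin3a peak (chr9:57073656-57073675, plus strand, in both lists). In each list the median over all peaks was near these values, at 8 mismatches in WT and 7 in 3xTg. Of the 5 stretches at Rest, the 2 nearest to the summit were at chr5:77265841-77265860 and chr5:77265853-77265872, both on the plus strand, 46 and 58 bases from it. The second of these matched the first 11 bases of RE1 in full and had all 7 mismatches in the last 9. The first 11 bases were singled out after this stretch was seen. Without a mismatch they occurred in 61 of 5077 3xTg peaks (1.20%), against 0.138% of the windows placed 10 kb downstream, and in 33 of the 4768 3xTg peaks without an RE1 match (0.692%). No Sin3a peak held them.

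For comparison, the same search was made at 10 textbook RE1 target genes. These were chosen with earlier results of these data known, so their counts are not an independent check of the lists. Of these, 7 had a WT peak, against 9.27% of all genes, and 7 a 3xTg peak, against 14.2%. The genes in both lists, against 7.75% of all genes, were the 6 genes Gria2, Vgf, Celsr3, Chrm4, Chgb and Snap25. Syt4 had a WT peak alone, Stmn2 a 3xTg peak alone, and Syp and Syn1 had no peak. The Stmn2 peak ranked 4821 of 5077, and its best stretch had 9 mismatches. All 7 WT peaks and 6 of the 7 3xTg peaks held an RE1 match, with 2 to 4 mismatches. At Celsr3, the highest of these peaks (rank 17 in WT and 24 in 3xTg), the match lay 1128 and 1122 bases from the summits. At the other genes with a match it lay at most 44 bases from the summit. At Vgf, a neuronal growth factor gene, the peak had a fold enrichment of 28.2 (rank 46) in WT and 43.4 (rank 52) in 3xTg, and the match (chr5:137030274-137030293, plus strand) lay 17 and 18 bases from the summits. At Chgb, which encodes a granin of secretory granules, it was 18.9 (rank 108) and 36.1 (rank 86), with the match at chr2:132781795-132781814 on the minus strand. The stretches are set side by side to show how much of RE1 the peaks at Rest and Sin3a hold, with the 2 tied stretches nearest to the summit for Rest; capitals mark bases that match the consensus.
Vgf, 2 mismatches: GGCGCTGTCCAgcGTGCTGA
Chgb, 2 mismatches: GGAGCTGTCCggGGTGCTGA
Srrm4, 3 mismatches: GGCGCTGTCCgaaGTGCTGA
Sin3a, weaker peak, 6 mismatches: GcCcCcGTCCcTGtTtCTGA
Rest, 7 mismatches: GGCGCTGTCCAgGGctgatt
Rest, 7 mismatches: GGAGCgGcgCgaGGcGCTGt
Sin3a, stronger peak, 8 mismatches: GagGCTtgCCcaGGcGgTGA

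What the bound stretches shared was a CpG-rich sequence. The Rest peak had 97 CpG dinucleotides in 711 bases, a GC content of 75.9% and an observed-to-expected CpG ratio of 0.948. The 4 Sin3a peaks ranged from 56.1 to 61.8% GC, with ratios of 0.608 to 0.738. Over all peaks the median GC content was 48.4% in WT and 46.8% in 3xTg, with CpG ratios of 0.358 and 0.293, and over peaks that cover a start site the medians were 57.6 and 55.7% GC and ratios of 0.754 and 0.697. The 5 peaks at Rest and Sin3a were thus richer in GC and CpG than the median of all peaks in their list. The Rest peak and both 3xTg peaks at Sin3a were also above both medians of start-site peaks in their list. Of the WT peaks at Sin3a, the stronger was below both of these medians, and the weaker was above in GC content alone. The first 100 bases of Rest intron 1, which hold the summit, and the Sin3a sequence from 50 bases before to 50 bases after the summits of both lists are given with every CpG in capitals, all on the plus strand of mm10.
Rest intron 1, chr5:77265789-77265888: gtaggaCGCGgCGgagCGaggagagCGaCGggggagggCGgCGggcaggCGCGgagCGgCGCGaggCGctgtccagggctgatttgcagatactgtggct
Sin3a, stronger pair, chr9:57075905-57076050: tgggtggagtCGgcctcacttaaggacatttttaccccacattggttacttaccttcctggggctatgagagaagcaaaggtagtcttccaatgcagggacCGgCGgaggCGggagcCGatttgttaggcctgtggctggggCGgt
Sin3a, weaker pair, chr9:57073505-57073667: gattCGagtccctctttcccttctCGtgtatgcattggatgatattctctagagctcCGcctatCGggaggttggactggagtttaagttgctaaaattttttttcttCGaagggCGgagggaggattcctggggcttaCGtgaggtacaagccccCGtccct
The 100 bases of Rest hold 14 CpG dinucleotides, against 6 in the 146 bases at the stronger Sin3a summits and 8 in the 163 bases at the weaker ones.

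CpG content was also read at the start sites of the genes without a peak. In RefSeq's mm10 windows from 250 bases before to 50 bases after a start site, which matched 8 of the 10 genes, a window was called CpG-rich at a GC content over 50% and an observed-to-expected ratio over 0.6. All 8 genes (Rcor1, Rcor2, Rcor3, Sin3a, Sin3b, Hdac2, Kdm1a and Ehmt2) had at least 1 such window, and 1 of them, Sin3a, had a peak. At Sin3a the window of the second start site was CpG-rich, with 62.3% GC, and the window of the first, at 50% GC, did not pass. The windows of the 7 genes without a peak ran from 53.3% GC at Sin3b to 82.7% GC at Ehmt2. Over all 9007 genes with a CpG-rich window, 15.6% had a WT peak and 23.1% a 3xTg peak, against 4.55% and 7.70% of the 10521 genes without one. The 1 of 8 here is near the share of CpG-rich genes, and with all 8 genes CpG-rich no contrast within the group could be made. None of the windows of the 8 genes held an RE1 match, their best stretches having 7 to 10 mismatches, and 0.953% of all 32851 windows did.

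Around these 10 genes, 38 further genes of the same complexes and of REST control were examined: 13 had a WT peak (9.27% of all genes did), 19 a 3xTg peak (14.2% of all genes) and 12 a peak in both lists (7.75% of all genes). Of all protein-coding genes 10.3% had a WT peak and 15.7% a 3xTg peak. Of genes with a CpG-rich window 15.6% and 23.1% did. The 38 genes were not matched to other genes by CpG content or body length. They were also chosen with earlier results of these data known, so their counts do not test for an excess. The counts of the smaller groups that follow are descriptions. Of the partners of CoREST, 3 of 8 had a WT peak (9.27% of all genes) and 4 of 8 a 3xTg peak (14.2%). Ctbp1, which encodes a corepressor found with CoREST, had a peak upstream of its start site with a fold enrichment of 9.64 (rank 647) in WT and 14.7 (rank 1104) in 3xTg, 132 and 13 bases from the start site. In the 3xTg list it ranked below the stronger Sin3a peak and above the weaker one.

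Of 13 other SIN3 complex genes, 5 had a WT peak (9.27% of all genes) and 5 a 3xTg peak (14.2%), 4 of them in both lists: Arid4a, Brms1l, Ing1 and Sap30. Ing2 fell across the 5 kb limit: its 3xTg peak lay 4885 bases from the start site, while the WT peak that overlaps it lay 5040 bases away and was not counted. Brms1l had a fold enrichment of 7.91 (rank 1169) in WT and 19.9 (rank 495) in 3xTg at its start site, a ratio of 2.51 that was above that of 96.2% of shared pairs, and so exceeded the ratio of the stronger Sin3a peak. Of the other class I deacetylases, Hdac3 had a 3xTg peak alone, with a fold enrichment of 8.60 (rank 4980), and Hdac8 had none. Hdac3 and Rest thus both had a low-ranked 3xTg peak with no WT peak, but the 2 peaks differed in width and place. The Hdac3 peak was 2254 bases wide, against 711 bases at Rest. It was also counted for the gene Rell2, and its summit lay 1236 bases before the Hdac3 start site, outside the gene body.

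Of 5 histone methylation partners, 2 had a peak in each list, Kdm5c and Wiz, against 7.75% of all genes with a peak in both. Wiz, which encodes a zinc finger partner of the Ehmt2 complex, had the highest peak of all 38 genes, with a fold enrichment of 17.3 (rank 135) in WT and 34.0 (rank 106) in 3xTg. This peak reached 102 bases in WT and 208 bases in 3xTg into the 3′ end of Wiz and lay 10315 and 10209 bases from the nearest of its start sites, while the start site of Akap8l, the next gene on the same strand, was 3018 and 2552 bases away. Ehmt2 and its partner Ehmt1 had no peak.

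Genes that control REST stability, location and splicing had 3 of 10 with a WT peak (9.27% of all genes) and 7 of 10 with a 3xTg peak (14.2%). Btrc, which encodes an E3 ligase subunit that targets REST for degradation, had an intronic peak of 8.32 (rank 980) in WT and 15.5 (rank 953) in 3xTg. Srrm4, the neural splicing factor that makes a truncated REST, had a peak over its start site with 6.81 (rank 1877) in WT and 9.49 (rank 3669) in 3xTg. Of all the peaks at the corepressor and regulator genes, those at Srrm4 and the 3xTg peak at Hdac3 were the ones that held an RE1 match. The match at Srrm4 (chr5:116591495-116591514, plus strand, 5′ UTR) had 3 mismatches and lay 38 and 62 bases from the summits. The match at Hdac3 had 5 mismatches, the most allowed, and lay 1313 bases from the summit. Usp15, Hipk2, Ctdsp1 and Ctdsp2 had 3xTg peaks with fold enrichments from 8.68 to 9.84 and no WT peak, a range that holds the 8.98 of the peak on Rest.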

How the data were processed

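The authors aligned reads to mm10 and called peaks with MACS on the 4 replicates of a genotype together. The submitters' processing notes name BWA for replicates 1 and 2 and the inputs, and STAR 2.7.0a for replicates 3 and 4, while the study's methods name STAR for all, so which aligner lies behind the pooled lists is not known. The deposited lists give each peak a score, a ratio of fold enrichment, p-value and q-value as −log10, and the summit offset, after the authors' filter of fold enrichment over 5, q under 0.01 and no ENCODE blacklist region. The score and the p-value were not used here. Since all mice were female, peaks called on chromosome Y (4 in WT, 9 in 3xTg) were dropped. Read depth per library is not given in the lists.

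Genes came from the 45756 curated RefSeq transcripts of mm10. A gene had a peak when a peak overlapped its body by at least 1 base or lay within 5 kb of a start site, and peaks sharing at least 1 base between the lists were called shared. Peaks were ranked by fold enrichment within a list, with ties given the smallest rank. RE1 was searched for as the 20-base consensus of the motif logo that the study shows, on both strands. No test was made. The share of all genes with a peak is the background to the counts of genes. The programs were tested on simulated data. Tools were samtools 1.23.1, pysam 0.24.0 and Python 3.11.15 with pandas 2.3.3, numpy 2.4.6, matplotlib 3.10.9 and statsmodels 0.14.6.

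The 10 genes and the lists of 38 corepressor and regulator genes and of 10 textbook targets were chosen with earlier results of these data known. The rule named all 10 genes, every gene at a peak counted for them, and in each list the 2 corepressor or regulator genes whose fold enrichment was highest (Wiz in both). Other genes were named after their values were seen. A further part of the rule, genes nearest to Rest in both lists, named none, since Rest had no WT peak. 1 allele of the 3xTg mice and 1 gene that the rule also named are not reported here. Alternatives were the summit in place of the peak, 1 kb in place of 5 kb, start sites without gene bodies, a fold enrichment over 10, a q under 1e-05, as many 3xTg peaks as WT peaks, predicted transcripts, an overlap of at least 50%, chromosome Y kept, rank by −log10 q, and for RE1 at most 4 or 6 mismatches or 200 bases around the summit. A summit within 1 kb of a start site and the first 11 bases of RE1 alone were added after seeing the data.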

Additional observations from a re-analysis of the deposited data

How the results depend on the processing

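No paired analysis was possible because a list is 1 set of peaks for all 4 replicates and holds no value per replicate, and for the same reason no replicate could be left out in turn. The finding at Rest rests on 1 low-ranked peak. When peaks had to exceed a fold enrichment of 10 in either list, or with as many of the highest 3xTg peaks as there are WT peaks, 1 gene of the 10 had a 3xTg peak in place of 2, and 0 had a 3xTg peak and no WT peak in place of 1: Rest was lost and Sin3a kept. The counts of other corepressor and regulator genes changed too. With a fold enrichment over 10, 3 had a WT peak in place of 13 and 9 a 3xTg peak in place of 19, while the share of all genes fell from 9.27 to 1.90% in WT and from 14.2 to 9.38% in 3xTg. With equal numbers of peaks 9 had a 3xTg peak, and the share of all genes was 8.79%. The count of genes with a WT peak, and of those with a peak in both lists, stayed at 1 under every alternative run, including an overlap of at least 50%, which the stronger Sin3a peak passed and the weaker did not.

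A summit is a single base, and read in place of the whole peak it lay on a start site at 0 genes in both lists, by construction. Within 1 kb of a start site, an alternative chosen after seeing the data, 2 genes had a 3xTg summit, Rest and Sin3a, in place of 1. No share of all genes was taken for this rule, so this count has no background. Ranked by −log10 q, the Rest peak stood at 4577 in place of 4337, the stronger Sin3a peak at 642 in WT and 450 in 3xTg, and the weaker at 988 in WT. With at most 6 mismatches 1 WT and 1 3xTg peak, both the weaker Sin3a peak, held an RE1 match in place of 0. At this limit 14.8% of all WT peaks and 17.5% of all 3xTg peaks held a match. With the first 11 bases of RE1 read alone and no mismatch allowed, a part of RE1 picked once the Rest sequence had been seen, 1 3xTg peak, that at Rest, held a match in place of 0. The q limit of 1e-05 removed no peak. The lowest −log10 q was 13.3 in WT and 29.0 in 3xTg. Unequal depth was not tested, and the absence of a WT peak at Rest is an absence from a list and not a measured lack of binding.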

Other observations

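The peaks in the surroundings of the 10 genes were named after their values were seen. The nearest neighbour of the Rest peak in the 3xTg list was the peak at Noa1 and Polr2b, chr5:77309511-77310923, 44017 bases from the Rest start site. Its fold enrichment was 23.4 (rank 304) in 3xTg and 9.70 (rank 638) in WT, so that a shared and much higher peak lay beyond the 3′ end of Rest. Within 100 kb of the gene bodies, Sin3a had 4 peaks in each list, counting its own. Rest had 1 WT and 2 3xTg peaks, Hdac1 2 and 1, Ehmt2 1 and 3, Sin3b 1 and 1, and Rcor2 0 and 1. Rcor1, Rcor3, Hdac2 and Kdm1a had none in either list. At Hdac1 the nearest peaks of the 2 lists were at different places, so their values do not compare 1 site. The nearest 3xTg peak, at Txlna, was among the highest of its list, with a fold enrichment of 29.8 (rank 150). The nearest WT peak, at Ccdc28b, Dcdc2b and Iqcc, had 6.01 and ranked 3002 of 3006.

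Arid4b, a subunit of the SIN3 complex, had no 3xTg peak but a WT peak 75 bases from its start site (fold enrichment 6.12, rank 2715). The summit lay 233 bases before that start site, outside the gene body. The same peak was also counted for the gene Ggps1, so position alone does not assign it to Arid4b.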
